A study of Mus musculus with 6 samples.

Results

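Hypoxia response genes, among them Ndufa4l2, were examined in RNA-Seq libraries of muscle stem cells (MuSCs) from injured mouse muscle. They are the 10 genes of 49671 in the deposited tables whose symbol is Hif1a, Epas1, Egln1, Egln3, Vegfa, Ndufa4l2, Bnip3, Ankrd37, Car9, or Ddit4, and all 10 had enough counts to be tested. The list was drawn up when results of the comparison of resolvin D1 (RvD1) with vehicle were already known, so its members count as chosen by their log2 fold changes in these 6 libraries as well as by symbol. The differences of these 10 genes between the groups are therefore given as a description, without a test, and nothing is read from their direction.

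MuSCs were sorted from female C57BL/6 mice aged 4 to 6 months at day 3 after BaCl2, which destroys myofibers, had been injected into the tibialis anterior (TA) muscles (50 μL of a 1.2% solution). Mice of one group received RvD1, a lipid mediator derived from docosahexaenoic acid that takes part in the resolution of inflammation, by daily intraperitoneal injection of 100 ng. Control mice received the vehicle alone, and the injections of both groups contained 0.1% ethanol. All mice were injured, so the libraries hold no uninjured muscle. Each group had 3 mice, and each mouse gave 1 library from the pooled cells of both TA muscles. FACS selected cells with β1-integrin and CXCR4 on their surface and removed those with CD45, CD11b, Ter119, or Sca-1, to which the labels add CD31.

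Cells sense oxygen through prolyl hydroxylases of the Egln family, which use oxygen to hydroxylate the α subunits of hypoxia-inducible factor (HIF), encoded by Hif1a and Epas1. The hydroxylated subunits are bound by the von Hippel-Lindau protein and degraded, whereas in low oxygen they persist, pair with Arnt, and bind hypoxia response elements in the promoters and enhancers of target genes. The control acts mainly on the protein, so the RNA of Hif1a does not measure HIF activity, while the RNA of its targets lies closer to it. In skeletal muscle, HIF targets bear on glycolysis, mitochondrial respiration, blood vessel growth, and the state of MuSCs.

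The DNA that HIF reads is short, and promoter sequences are shown to place the core of its response element in these genes. RefSeq promoter windows on GRCm38.p6, each from 250 bases before to 50 bases after a transcription start, were at hand for 8 of the 10 genes, with 9 windows because Vegfa has a pair of them. The cores ACGTG and GCGTG were searched on both strands. A core was found in 8 of the 9 windows (88.9%) and in 14380 of 32851 windows of all genes (43.8%). ACGTG alone was found in 8 of the 9 (88.9%) and in 6447 of all windows (19.6%). These genes are listed as hypoxia genes because of such knowledge, so the share is a description and not a finding. In the stretches below, written 5′ to 3′ on the strand of the gene, capitals mark the cores, which read CACGT and CACGC where they lie on the other strand.
Hif1a, chr12:73907717-73907816, plus strand: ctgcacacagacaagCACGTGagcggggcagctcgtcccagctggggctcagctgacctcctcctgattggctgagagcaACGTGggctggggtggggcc
Egln3, chr12:54204084-54204118, minus strand: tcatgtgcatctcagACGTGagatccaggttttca
Bnip3, chr7:138909522-138909638, minus strand: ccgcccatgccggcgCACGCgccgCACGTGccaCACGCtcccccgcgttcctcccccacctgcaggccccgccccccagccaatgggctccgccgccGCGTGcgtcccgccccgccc
Ddit4, chr10:59951866-59951972, minus strand: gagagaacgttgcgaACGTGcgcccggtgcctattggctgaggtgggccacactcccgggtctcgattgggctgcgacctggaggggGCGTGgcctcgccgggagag

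Bnip3 had the densest set, with 5 matches whose first bases lay from 117 to 35 bases before the start. The palindrome CACGTG in Bnip3 and Hif1a holds ACGTG on both strands and was counted on each, and it is also the E-box of MYC and USF proteins. Hif1a had 3 matches, at positions -135, -134, and -70. Ankrd37 had 4, Egln1, Ddit4, and one Vegfa window had 2 each, and Egln3 and Car9 had 1 each. These positions are counted from RefSeq starts, several of which lie inside the gene as GENCODE draws it. The start lies 6492 bases inside for Hif1a, 5857 for Ankrd37, and 7206 for the Vegfa window with matches, while the window at the 5′ end of Vegfa held none of these letters. The Car9 match lay 18 bases before a RefSeq start that is 60 bases inside the gene, and so within its first exon. The matched stretches of Ankrd37, Egln1, and Vegfa also overlap annotated exons of those genes and are not printed. A match shows where the letters stand and not that HIF was bound there in these cells.

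**Figure D1:**
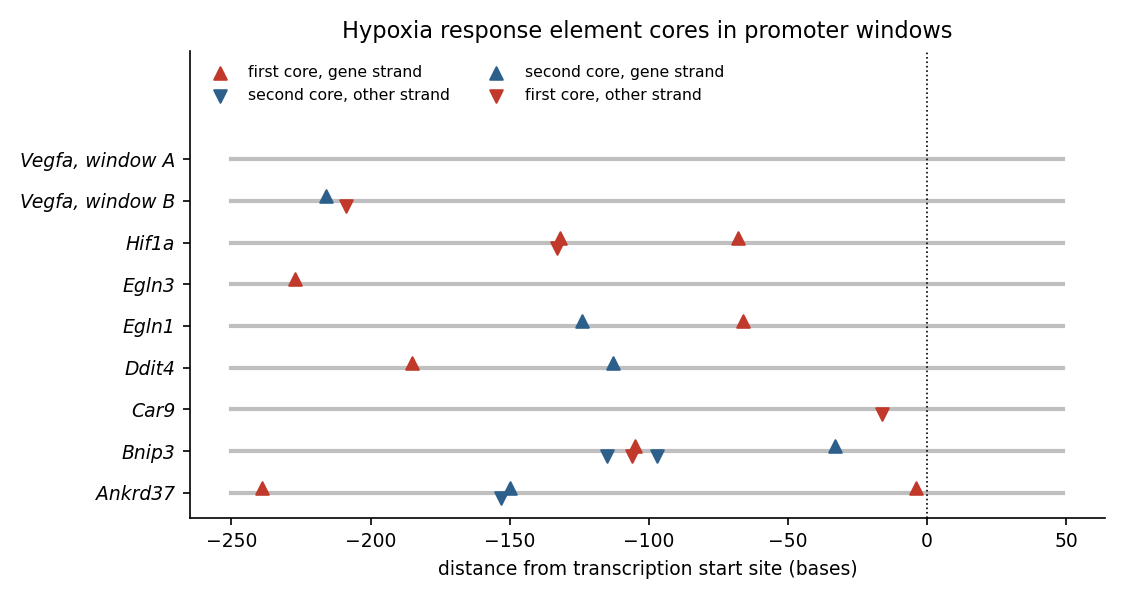
Positions of hypoxia response element cores in the 9 RefSeq promoter windows of 8 hypoxia genes, with the distance from the RefSeq start on the horizontal axis in bases. Red marks the first core (ACGTG) and blue the second (GCGTG), upward triangles lie on the strand of the gene and downward triangles on the other strand, and each mark stands at the middle base. Cores lie before the start in 8 of the 9 windows.

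The 6 libraries held between 16148026 and 28149176 expected counts, so that 3 counts correspond to a CPM (counts scaled to the library total) of 0.107 to 0.186. This floor covers counting error only. The sorted cells carried the markers of MuSCs, with 9 of 9 detected and a summed level from 2764 to 3768 TPM (transcripts scaled for their length and for depth). Myog, a late myogenic factor, was the most abundant of them. Pax7, which defines MuSCs, was present at a mean of 5.41 TPM. RNA of other cell types was present as well, with 0 markers absent from all libraries. Summed levels were 328.9 to 670.1 TPM for 11 mural markers (most abundant Acta2), 736.5 to 1709 TPM for 7 fibro-adipogenic markers (Col3a1), 44.2 to 98.3 TPM for 12 leukocyte markers (Lyz2), 11.5 to 33.5 TPM for 10 endothelial markers (Egfl7), and 11.4 to 95.7 TPM for 6 erythroid markers (Hba-a2). In bulk RNA, fewer cells of a type and less RNA per cell cannot be told apart.

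Marker lists were compared between the groups as the mean log2 CPM of their genes. The leukocyte list was lower with RvD1 by 0.63 on the log2 scale, with 0 of 12 markers higher (two-sided exact permutation test, p = 0.1, which is the lowest value 3 mice against 3 can give). The mural list was higher by 0.42, with 11 of 11 markers higher in the mean (same exact test, p = 0.3), and RvD1 replicate 1 stood apart from the rest at 4.96 log2 CPM against 4.03 to 4.48 elsewhere. Differences were -0.63 for endothelial (exact p = 0.5), -0.70 for erythroid (exact p = 0.5), 0.12 for fibro-adipogenic (exact p = 0.8), and 0.07 for muscle stem cell markers (exact p = 0.7). None passed a threshold of 0.05, which this design cannot reach. With 1 library left out, the endothelial difference ranged from -1.28 (without vehicle replicate 2) to -0.17 (without vehicle replicate 3) and the erythroid one was -1.45 when RvD1 replicate 2 was omitted and -0.20 when RvD1 replicate 1 was.

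The 10 genes covered a wide range of levels. Mean TPM over the 6 libraries, which is scaled for transcript length and so allows genes to be compared, was 114.1 for Hif1a, 63.6 for Bnip3, 48.0 for Vegfa, 28.2 for Egln3, 19.4 for Egln1, 12.8 for Ankrd37, 6.34 for Ndufa4l2, 4.36 for Ddit4, 2.52 for Car9, and 2.12 for Epas1. The factor, the mitophagy receptor, and the growth factor thus led the order, and the HIF-2α subunit and the carbonic anhydrase closed it. Neighbours kept their order in 6 of 6 libraries for 5 of the 9 pairs. These were Hif1a above Bnip3 (1.84-fold), Bnip3 above Vegfa (1.3-fold), Vegfa above Egln3 (1.72-fold), Egln1 above Ankrd37 (1.54-fold), and Ankrd37 above Ndufa4l2 (2.13-fold). Each of the 5 had a two-sided exact sign permutation p of 0.0313, the smallest possible with 6 libraries, and an adjusted p of 0.0563 over the 9 pairs, so 0 pairs passed 0.05 after adjustment. The other pairs crossed in at least 1 library. Egln3 lay above Egln1 in 5 of 6 libraries and Ddit4 above Car9 in 5 of 6 (exact permutation p = 0.0625, adjusted 0.0804, for each). Ndufa4l2 above Ddit4 held in 4 of 6 (exact p = 0.125, adjusted 0.141), and Car9 above Epas1 in 4 of 6 (exact p = 0.844), so the order within these pairs is not resolved.

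**Figure D2:**
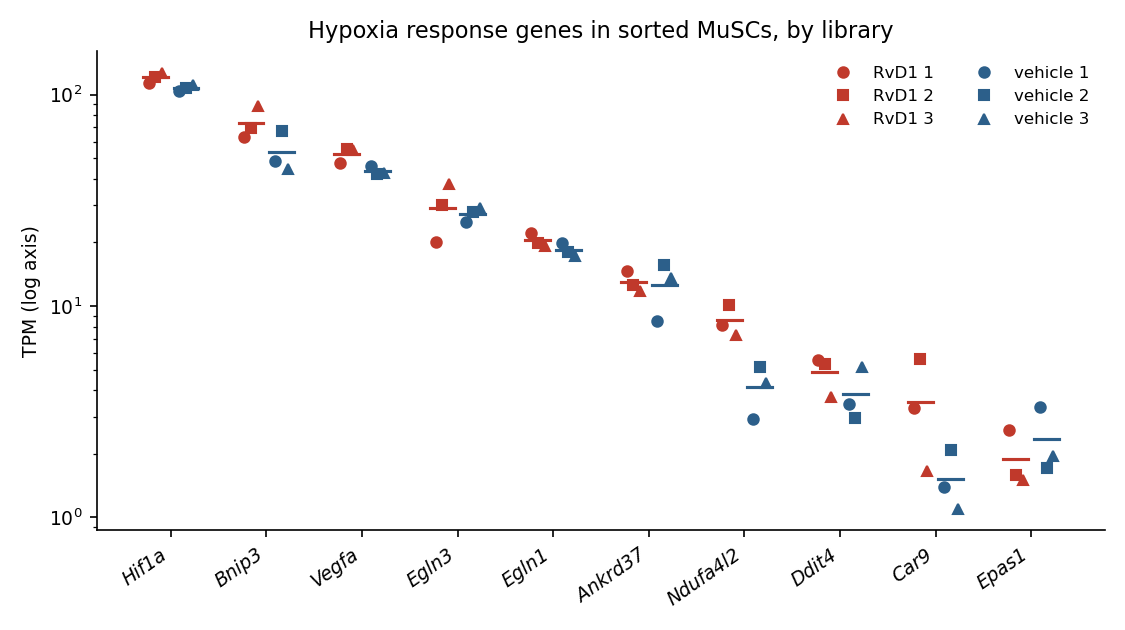
Levels of the 10 hypoxia genes in TPM, on a log axis, with 1 point for each library (RvD1 in red, vehicle in blue) and a line at the mean of each group of 3. Hif1a is highest at 104 to 127 TPM, and the RvD1 and vehicle points are apart for Ndufa4l2 (7.33 to 10.2 against 2.91 to 5.14 TPM).

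Among all 14494 genes tested, 0 (0.0%) passed an adjusted p of 0.05 in edgeR's quasi-likelihood test, and the same count was 0 with DESeq2, with limma-voom, and with limma-voom after removal of 1 surrogate variable. Since 0 genes passed, no gene of the list was called. At an unadjusted p under 0.05 the counts were 503 (3.47%), 474, and 482 of these genes, and 2973 of 26518 genes in the last fit. That fit kept genes with fewer counts, but edgeR without a count filter gave 1143 of 26641. It also took the surrogate variable out of the values before a test that did not account for it. On simulated counts it made 378 false calls, so its counts are not comparable with the others. In 8 of the 10 the log2 fold change was above 0, beside 53.5% of all genes, and the median was 0.12 beside 0.01 over all genes. Groups did not overlap in CPM for 1 of the 10, Ndufa4l2, beside 4.8% of all genes that lay wholly higher with RvD1. Since the genes were listed with this comparison known, nothing is read from these shares.

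Ndufa4l2 (ENSMUSG00000040280, chromosome 10, 127514967 to 127517154, plus strand of GRCm38) encodes a paralog of the cytochrome oxidase subunit Ndufa4 and is a HIF-1 target that lowers mitochondrial respiration. Expected counts were 86, 148, and 68 for RvD1 replicates 1, 2, and 3 and 25, 41, and 37 for the vehicle replicates. Scaled for length and depth, these were 8.15, 10.2, and 7.33 TPM with RvD1 and 2.91, 5.14, and 4.33 TPM with vehicle. Every RvD1 library lay above every vehicle library, on the TPM scale and on the CPM scale. Means were 8.54 ± 1.45 TPM with RvD1 and 4.13 ± 1.13 TPM with vehicle (SD, n = 3). The log2 fold change from counts was 1.13 (SE 0.28), or 2.19-fold. It ranged from 0.95 without RvD1 replicate 2 to 1.28 without vehicle replicate 2. Of all genes tested, 1.12% had a log2 fold change above 1. Since Ndufa4l2 counts as chosen by this value, nothing is read from that share.

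The counts of Ndufa4l2 were low, with a mean of 67.5, which limits their precision. Its last 32 bases (127517123 to 127517154) overlap Shmt2, a serine hydroxymethyltransferase gene on the opposite strand with far more counts. The study's methods speak of single-stranded RNA-Seq, but SMART-Seq v4 cDNA with Nextera XT does not mark strand. The strand setting of the counting is not given in the sources used here, so reads in these bases may not be assignable by strand. Reads of 76 bp are longer than the shared stretch, and expected counts of Ndufa4l2 were fractional in 0 of 6 libraries. Shmt2 had 4066, 7672, and 5133 counts with RvD1 and 3986, 4727, and 5192 with vehicle, and a log2 fold change of -0.11 (SE 0.157). Counts of both genes were highest in RvD1 replicate 2 and lowest in vehicle replicate 1, which are also the deepest and the shallowest library, and the part of shared reads in Ndufa4l2 was not tested.

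The paralog pair can be compared as a ratio of levels within each library. Ndufa4, the subunit used in most cells, averaged 1126 ± 158 TPM in the RvD1 libraries and 1159 ± 66.2 TPM in the vehicle libraries (SD, n = 3), with a log2 fold change of -0.14 (SE 0.118). Ndufa4 exceeded Ndufa4l2 by 149.6-, 119.9-, and 128.7-fold in the RvD1 libraries and by 373.7-, 228.3-, and 281.2-fold in the vehicle libraries. The paralog that hypoxia induces was thus a small share of the pair in all 6 libraries. The ratios of the groups did not overlap, which restates the levels of Ndufa4l2, since Ndufa4 varied only from 943.6 to 1219 TPM. Cox4i2, the hypoxia form of another cytochrome oxidase subunit, was at 1.7 to 2.19 TPM with RvD1 and 1.76 to 2.43 TPM with vehicle, and the groups overlapped.

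Ndufa4l2 is also known as a marker of pericytes and vascular smooth muscle, so mural markers are set beside it. The summed mural level was 670.1, 328.9, and 485.3 TPM in RvD1 replicates 1, 2, and 3 and 461.3, 404.1, and 355.3 TPM in the vehicle replicates. RvD1 replicate 2, with the highest Ndufa4l2, had the lowest sum, of which Acta2 made up 249.6 TPM. As the mean log2 CPM of the 11 genes, which gives each gene the same weight, the lowest library was instead vehicle replicate 1 (4.03), which also had the lowest Ndufa4l2, and RvD1 replicate 2 stood at 4.10. The order of the libraries thus depended on the scale. Single mural genes varied in their pattern. Abcc9, a potassium channel subunit of pericytes, was at 6.72, 3.11, and 3.99 TPM with RvD1 and 1.91, 2.36, and 2.18 TPM with vehicle, without overlap. Of the 11 markers, it was the 1 whose groups did not overlap in CPM, beside 4.8% of all genes wholly higher with RvD1. Log2 fold changes of the 11 ran from 0.02 to 0.99, the latter that of Abcc9. Rgs5, a regulator of G protein signaling in pericytes, was at 21, 10.9, and 13.5 TPM with RvD1 and 9.93, 9.5, and 11.3 TPM with vehicle, with overlap. The part of mural RNA in the level of Ndufa4l2 was not tested.

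**Figure D3:**
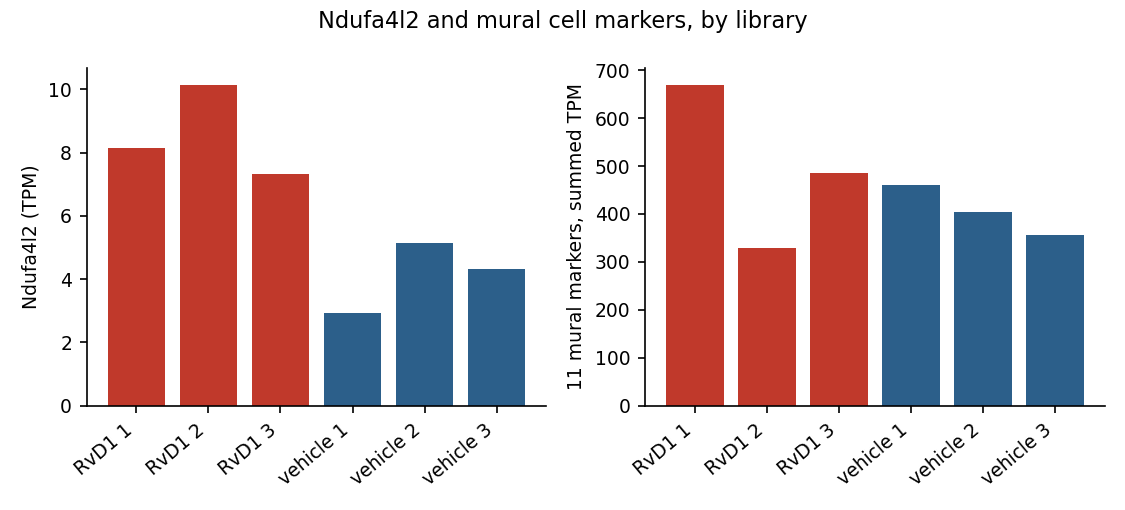
Ndufa4l2 in TPM (left) and the summed TPM of 11 mural markers (right), with 1 bar for each of the 6 libraries, RvD1 in red and vehicle in blue. RvD1 replicate 2 has the highest Ndufa4l2 (10.2 TPM) and the lowest mural sum (328.9 TPM), and RvD1 replicate 1 has the highest mural sum (670.1 TPM), though by mean log2 CPM the lowest mural library is vehicle replicate 1.

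Bnip3 (ENSMUSG00000078566, chromosome 7, 138890836 to 138909519) is the other mitochondrial gene of the list and encodes a receptor that directs mitochondria to autophagy. It was at 62.7, 69.7, and 88.4 TPM in the RvD1 replicates and 48.6, 67.5, and 44.5 TPM in the vehicle replicates. Vehicle replicate 2 lay among the RvD1 libraries, so the groups overlapped. The log2 fold change was 0.35 (SE 0.185), 0.22 to 0.57 with 1 library left out. The antisense gene Gm45507 within its locus held 0.542% as many counts. Bnip3l, its paralog, exceeded Bnip3 in all libraries, by 2.17- to 4.36-fold with RvD1 and 3.19- to 4.19-fold with vehicle.

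Vegfa (ENSMUSG00000023951, chromosome 17, 46016993 to 46032369), the main growth factor for new vessels, was at 47.3, 55.3, and 54.4 TPM with RvD1 and 46.2, 42.1, and 42.6 TPM with vehicle. On this scale the groups did not overlap, although RvD1 replicate 1 and vehicle replicate 1 lay close together. On the CPM scale, normalized by the TMM method, they did, with 73.88, 98.9, and 85.0 CPM against 73.95, 77.8, and 77.5 CPM. In TPM most genes lay higher with RvD1, with 16846 of 26766 above 0 in limma on log2(TPM + 1), beside 7749 of 14494 in edgeR. The share of all genes whose groups lie apart in TPM was not counted, so nothing is read from such a separation. The log2 fold change of Vegfa was 0.17 (SE 0.118). It shrank to 0.05 with RvD1 replicate 2 left out, the library in which Vegfa was highest.

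Car9 (ENSMUSG00000028463, chromosome 4, 43506966 to 43513729) encodes a carbonic anhydrase of the cell surface that controls pH in hypoxic cells. Its expected counts were 83.5, 148.8, and 34.9 with RvD1 and 27, 45.6, and 24 with vehicle, or 3.29, 5.6, and 1.66 TPM against 1.39, 2.08, and 1.1 TPM. RvD1 replicate 3 lay below vehicle replicate 2, so the groups overlapped. The log2 fold change was 0.99 (SE 0.422), or 1.98-fold, and it moved to 0.62 without RvD1 replicate 2 and to 1.32 without vehicle replicate 2. Its spread among RvD1 mice, 3.52 ± 1.98 TPM (SD, n = 3), was wide for its level. Car9 also shares its locus with Gm12454, an antisense gene with 18.7% as many counts and a log2 fold change of 0.51 (SE 0.484), and reads of such a pair cannot be told apart without strand.

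Ankrd37 (ENSMUSG00000050914, chromosome 8, 45996902 to 46005707), an ankyrin repeat gene used as an indicator of HIF-1, was at 14.7, 12.5, and 11.7 TPM with RvD1 and 8.51, 15.7, and 13.6 TPM with vehicle. Its log2 fold change of -0.03 (SE 0.248) lay near 0, and it ranged from -0.22 to 0.16 over the alternatives. Ankrd37 shares 6405 bases with Lrp2bp on the opposite strand, which had 13.7% as many counts and a log2 fold change of -0.36 (SE 0.582). It also shares 57 bases with Ufsp2, an opposite-strand gene with far more counts. Expected counts of Ankrd37 were fractional in 4 of 6 libraries, and the part of shared reads was not tested. Ddit4 (ENSMUSG00000020108, chromosome 10, 59949669 to 59951834), which inhibits mTOR under hypoxia and other stress, was at 5.58, 5.31, and 3.7 TPM with RvD1 and 3.45, 2.95, and 5.16 TPM with vehicle. The groups overlapped for both Ankrd37 and Ddit4. The log2 fold change of Ddit4 was 0.25 (SE 0.289) and ranged from 0.10 to 0.54 with 1 library left out.

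The sensors and factors differed less between the groups than Ndufa4l2 and Car9 did. Hif1a (ENSMUSG00000021109, chromosome 12, 73901375 to 73947530), the HIF-1α subunit, was at 113.2, 121.6, and 127.2 TPM with RvD1 and 104, 107.2, and 111.5 TPM with vehicle. The groups lay apart by a small margin in TPM, the scale on which most genes lay higher with RvD1. They overlapped in CPM, where they were 297.8 to 331.9 and 283.5 to 316.7. It had the most counts of the list (mean 6258) and a log2 fold change of 0.08 (SE 0.0891). Epas1 (ENSMUSG00000024140, chromosome 17, 86753700 to 86833410), the HIF-2α subunit, was at 2.6, 1.58, and 1.5 TPM with RvD1 and 3.34, 1.71, and 1.96 TPM with vehicle (log2 fold change -0.20, SE 0.254). The value was -0.47 without RvD1 replicate 1 and -0.06 without RvD1 replicate 3. Hif1a exceeded Epas1 in every library, by 31.1- to 84.8-fold, so these cells carried far more RNA of the first subunit. Epas1 is best known from endothelial cells, whose markers summed to 25.4, 18.2, and 18.5 TPM with RvD1 and 21.6, 11.5, and 33.5 TPM with vehicle, and their part in its level was not tested.

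Egln1 (ENSMUSG00000031987, chromosome 8, 124908587 to 124949324), the prolyl hydroxylase that sets HIF-1α stability in normal oxygen, was at 22.2, 19.9, and 19.2 TPM with RvD1 and 19.9, 18.0, and 17.3 TPM with vehicle. RvD1 and vehicle differed by a log2 fold change of 0.07 (SE 0.103). Egln3 (ENSMUSG00000035105, chromosome 12, 54178981 to 54203860), a hydroxylase that is itself induced by HIF, was at 20.04, 29.9, and 37.6 TPM with RvD1 and 25.0, 27.9, and 29.0 TPM with vehicle. The RvD1 libraries thus spanned the vehicle libraries on both sides. Its log2 fold change of 0.01 (SE 0.211) turned to -0.20 without RvD1 replicate 3 and reached 0.23 without RvD1 replicate 1. The ratio of Egln3 to Egln1 in TPM was 0.902 in RvD1 replicate 1 and between 1.26 and 1.96 in the other libraries.

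**Figure D4:**
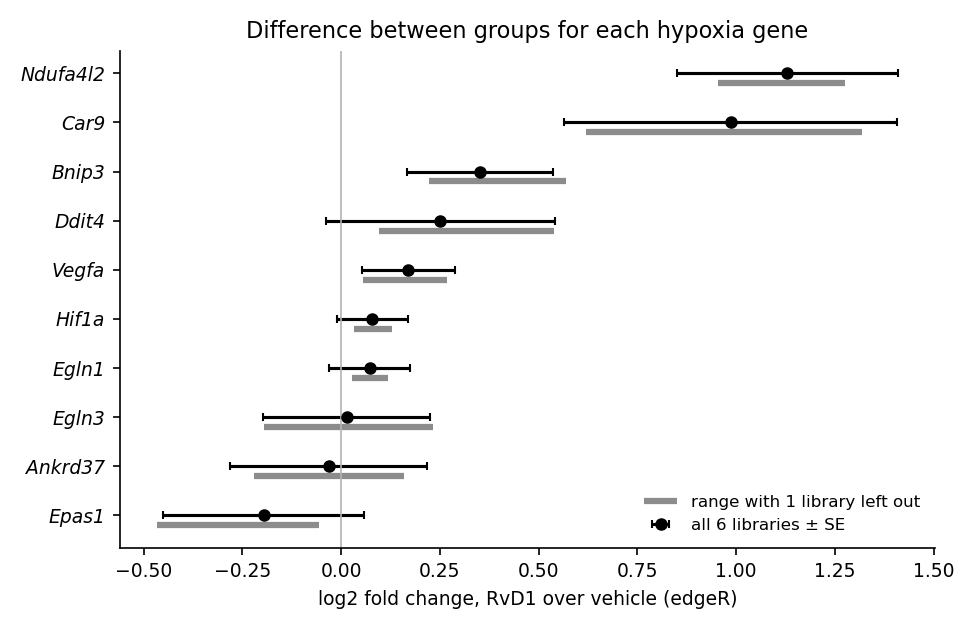
Log2 fold change of each hypoxia gene, RvD1 against vehicle, from edgeR, with black bars of 1 standard error and gray bars for the range over the fits that leave out 1 library each. Ndufa4l2 (1.13) and Car9 (0.99) lie farthest from 0, and the gray bars cross 0 for Egln3 and Ankrd37.

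The library with the highest or the lowest level differed from gene to gene. In CPM, RvD1 replicate 2 was the highest library for Vegfa, Ndufa4l2, and Car9, RvD1 replicate 3 for Hif1a, Egln3, and Bnip3, and RvD1 replicate 1 for Epas1 and Egln1. RvD1 replicate 1 was at the same time the lowest library for Egln3 and Vegfa, and RvD1 replicate 3 the lowest for Epas1. The lowest library was vehicle replicate 1 for Hif1a, Ndufa4l2, and Ankrd37 and vehicle replicate 3 for Egln1, Bnip3, and Car9, while Ankrd37 and Ddit4 were highest in a vehicle library. Some of these extremes rest on small gaps, as for Vegfa, at 73.88 CPM in RvD1 replicate 1 and 73.95 CPM in vehicle replicate 1. Whether the genes varied together across mice was not tested, and nothing is read from these positions.

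Other genes of the hypoxia pathway were read from a list of 68 symbols, 67 of which were in the files and 64 of which had enough counts. Of the 64, 0 had an adjusted p under 0.05 in edgeR (smallest 0.971), with DESeq2, or with limma-voom. At an unadjusted p under 0.05 the counts were 4 in edgeR, 5 in DESeq2, and 4 in limma-voom, and 11 of 66 after removal of 1 surrogate variable, with 0 past the adjusted threshold there too. Over all genes the same fits gave 503, 474, and 482 of 14494, and 2973 of 26518 in the last. Counts of the last fit are not comparable with the others, since its test did not account for the variable removed. Of the 4 pathway genes in edgeR, 3 were higher and 1 lower with RvD1, beside 1.83% and 1.64% of all genes. The log2 fold change was above 0 for 39 and below 0 for 25, with a median of 0.04. Groups did not overlap in CPM for 4 genes higher with RvD1 (Pfkfb3, Pfkfb4, Pdk1, and Loxl2) and 1 lower (Cox4i1), beside 4.8% and 4.83% of all genes. This list too was written with results of these libraries known.

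The regulators of HIF lay close to 0. Of the 10 tested in this group, 8 had a log2 fold change above 0 and 2 below, with a median of 0.13. Arnt, the partner of both α subunits, was at 26.7 to 38.6 TPM and had a log2 fold change of 0.13 (SE 0.131), and its relative Arnt2 one of -0.11 (SE 0.235), and the signs of both turned without RvD1 replicate 1 (-0.018 and 0.12). Vhl, which marks hydroxylated HIF for degradation, had 0.18 (SE 0.116). The third prolyl hydroxylase, Egln2, had 0.15 (SE 0.152), and Hif1an, which hydroxylates an asparagine of HIF and blocks its coactivators, had 0.04 (SE 0.108). The remaining members were Cited2, a HIF-induced competitor for coactivators (0.12), the ubiquitin ligases of the hydroxylases Siah1a (0.00) and Siah2 (-0.07), and the collagen prolyl hydroxylases P4ha1 (0.15) and P4ha2 (0.21), which are targets rather than regulators. Hif3a, at a mean of 2.5 counts, had too few to be tested.

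Genes of glucose uptake and glycolysis were split, with 7 of 16 above 0 and 9 below and a median of -0.04. The most abundant, Eno1, Ldha, and Gapdh, had log2 fold changes of -0.13, -0.05, and -0.07, and those of Eno1 and Ldha turned to 0.03 and 0.11 without RvD1 replicate 1. Pfkfb3, which makes the activator of phosphofructokinase, was at 5.42, 3.6, and 3.02 TPM with RvD1 and 1.9, 3.34, and 2.08 TPM with vehicle, so the groups overlapped in TPM though not in CPM. Its log2 fold change was 0.61 (SE 0.221, edgeR unadjusted p = 0.0231, adjusted p = 0.971). Slc16a3, a lactate exporter, had the same log2 fold change of 0.61 (SE 0.409), which moved to 0.20 without RvD1 replicate 3, where it was highest at 33.2 TPM.

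Mitochondrial genes of the list were evenly divided, 5 above 0 and 5 below, with a median of -0.02. Pdk1, the kinase that keeps pyruvate out of the mitochondrion, was at 6.99, 6.67, and 7.32 TPM with RvD1 and 3.22, 5.39, and 1.87 TPM with vehicle. The groups of Pdk1 did not overlap, and the vehicle libraries were the more scattered. Its log2 fold change was 0.65 (SE 0.282, edgeR unadjusted p = 0.0469, adjusted p = 0.971), the highest of the list, and it was 0.40 without vehicle replicate 3 and 1.05 without vehicle replicate 2. Cox4i1, the usual form of the subunit that Cox4i2 replaces in hypoxia, was at 1175, 1239, and 1237 TPM with RvD1 and 1367, 1406, and 1346 TPM with vehicle. Its log2 fold change was -0.22 (SE 0.0819, edgeR unadjusted p = 0.0233, adjusted p = 0.971), and that of Cox4i2 was -0.24 (SE 0.379), at a mean of 16.7 counts. Fam162a, a mitochondrial HIF target with a mean of 273.6 TPM, had 0.01.

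Secreted and matrix genes had a median of 0.16, with 8 of 14 above 0 and 6 below. Loxl2, which crosslinks collagen, was at 6.56, 6, and 8.58 TPM with RvD1 and 3.67, 4.31, and 4.74 TPM with vehicle, a log2 fold change of 0.53 (SE 0.193, edgeR unadjusted p = 0.0239, adjusted p = 0.971). Lox, the related enzyme, had 0.54 (SE 0.247), which moved to 0.20 without RvD1 replicate 1. That library held Lox at 158.7 TPM and had the highest summed fibro-adipogenic level (1709 TPM against 736.5 to 1075 in the others), and the part of such cells was not tested. P4hb, a subunit of the collagen hydroxylase, had -0.10 and Angptl4, a secreted lipase inhibitor, -0.04. The lowest values of the list were those of Edn1, a vasoconstrictor peptide (-0.48, SE 0.529), and Stc2, a secreted glycoprotein (-0.32, SE 0.254). Both rested on single libraries, with Edn1 at -0.04 without RvD1 replicate 3 and Stc2 at -0.07 without RvD1 replicate 1.

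In the remaining groups, 3 of 5 genes of pH and iron and 8 of 9 genes of transcription, chromatin, and stress were above 0, with medians of 0.04 and 0.15. The most abundant of the former were Tfrc, the transferrin receptor (-0.17), and Hmox1, which degrades heme (-0.08). Of the latter they were Sertad1 (0.00), the stress-induced gene Ndrg1 (0.26, and -0.05 without RvD1 replicate 1), and Ero1l, an oxidase of the endoplasmic reticulum (-0.01).

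**Figure D5:**
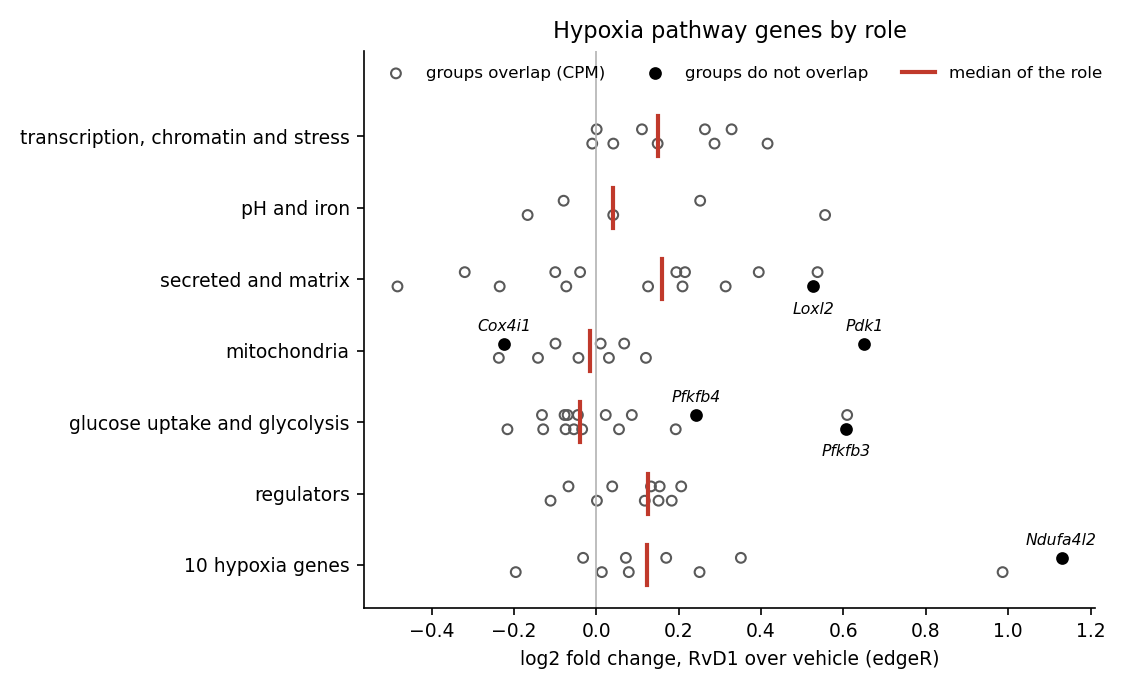
Log2 fold changes, RvD1 against vehicle, of the 10 hypoxia genes (bottom row) and the 64 other pathway genes tested, in rows by role, with 1 point for each gene and a red line at the median of each row. Filled points mark genes whose groups do not overlap in CPM, which are Ndufa4l2 and, of the other genes, Pfkfb3, Pfkfb4, Pdk1, and Loxl2 above 0 and Cox4i1 below.

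The genes whose pattern over the 6 libraries was most like that of Ndufa4l2 were found by the root mean square difference of centred log2 CPM among the 14493 other genes tested. The nearest were Gm43460 (0.158), Bdkrb2, a bradykinin receptor (0.211), Gm20517 (0.225), B930036N10Rik (0.231), and RP23-203P12.5 (0.237). Apart from RP23-203P12.5, with a mean of 122.4 counts, these had means of 14.2 to 18.6 counts. With 6 libraries and low counts such likeness is a description only. The centred values also keep the difference between the groups, through which Ndufa4l2 counts as chosen. Genes higher with RvD1 by a like amount thus rank near it by construction, and nothing is read from the ranks. Among the hypoxia genes and the pathway list the nearest were Pfkfb3, at rank 14 (0.282), Car9, at rank 119 (0.401), Pdk1, at rank 147, Loxl2, at rank 196, and Bnip3, at rank 232, and the mural gene Abcc9 stood at rank 245. Hif1a was at rank 1646, Cox4i2 at 11393, and Epas1 at 12769.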

How the data were processed

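RNA of sorted MuSCs from 3 RvD1-treated and 3 vehicle-treated mice was sequenced from one end, with a read length of 76 bp. The authors aligned reads to mm10 with STAR 2.5.0a and quantified genes with RSEM, which divides reads that match several genes. The deposited expected counts are these estimates, unscaled for depth. The deposited TPM and FPKM values are the authors' values per transcript length and library depth. Groups were taken from the sample labels.

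The hypoxia genes, pathway and marker lists were chosen with earlier results of these data known. Expected counts were rounded to whole numbers and tested over 14494 genes with edgeR 4.0.16 (filterByExpr, TMM, quasi-likelihood test, Benjamini-Hochberg adjustment, threshold 0.05) in R 4.3.3. SEs follow from the fold change and its test statistic. CPM are TMM-scaled counts, and marker levels used a prior count of 2. Neighbouring levels were compared as log2(TPM + 0.1). Positions are from GENCODE on GRCm38, and promoter sequences from RefSeq. Alternatives were DESeq2 1.42.0, limma 3.58.1 (voom, with and without sva 3.50.0, and log2 values of TPM or FPKM), other scaling, no count filter, a replicate block, and each library left out. On simulated counts with 200 genes changed 4-fold, edgeR recovered 193 with 13 false calls among 14214 genes. DESeq2 recovered 192 with 49 false calls and limma-voom 192 with 10. With surrogate variables estimated anew on these counts, their number not recorded, limma-voom recovered 196 with 378 false calls among 14494 genes. Smaller changes were not simulated, so recovery at fold changes such as that of Ndufa4l2 (2.19-fold) is not known.

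All 10 hypoxia genes and all regulators of the pathway list are named. In each other role the 3 most abundant genes are named, with all at an unadjusted p under 0.05, the 3 highest and 3 lowest fold changes of the list, Ndufa4 and Cox4i2, and the 5 genes nearest to Ndufa4l2 in pattern. Pfkfb4, Bnip3l, Shmt2, Abcc9, and Rgs5 were named after their values were seen. One gene that this rule names is not reported here. The authors' own comparisons were not used.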

Additional observations from a re-analysis of the deposited data

How the results depend on the processing

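The number of genes past the adjusted threshold of 0.05 was 0 and became 12 without a count filter in edgeR, a fit over 26641 genes, and was 0 to 1 with each library left out (Pagr1a, without RvD1 replicate 3). It was 0 under the other alternatives, with smallest adjusted p values from 0.0746 (limma on log2 of TPM + 0.1) to 0.986 (limma-voom). None of the other hypoxia pathway genes passed in any of the 16 alternatives. Replicate numbers recur in both groups, but nothing in the sources pairs the mice, and deviations of same-numbered libraries correlated at 0.311, -0.00071, and 0.126, with 3 of 6 libraries correlating best with their own number. With the replicate number as a block, 0 genes passed in edgeR (smallest adjusted p 0.791, 896 at an unadjusted p under 0.05), and the log2 fold change of Ndufa4l2 was 1.13. The sign of the log2 fold change was the same in all 16 alternatives for 8 of the 10 hypoxia genes, in 11 for Egln3 and in 10 for Ankrd37. That of Ndufa4l2 was 0.80 (log2 of FPKM + 1) to 1.21 (surrogate variable removed) with all libraries. With 1 library left out, the marker differences ranged from -0.0374 to 0.15 for muscle stem cells (below 0 without RvD1 replicate 1 or vehicle replicate 3), -0.11 to 0.34 for fibro-adipogenic cells (below 0 without RvD1 replicate 1), and 0.20 to 0.63 for mural cells. The leukocyte difference was -0.81 to -0.54, and -0.34 as a mean of log2(TPM + 1). Among named pathway genes, signs of values near 0 also turned under other scalings, as for Ldha, Gapdh, and Angptl4, which lay above 0 in limma on log2(TPM + 1). The order of neighbouring levels was not rerun with a library left out, since the exact sign permutation test over 5 libraries cannot reach 0.05. Depth limits Car9, Ndufa4l2, and Ddit4, which had as few as 24, 25, and 56 counts in a library.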
